A study of Bos taurus with 2 samples.

Results

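The miR-15, miR-16, miR-103 and miR-107 superfamily groups microRNAs (miRNAs, short RNAs that pair with messenger RNAs and lower their output) whose 5′ ends share the run AGCAGC. Its members were taken by name (bta-miR-103 is called miR-103 here, and likewise the others) from the array design: miR-15a, miR-15b, miR-16a, miR-16b, miR-195, miR-424, miR-497, miR-503, miR-103 and miR-107, with any arm suffix or star. This gave 10 of the 670 bovine miRNAs on the array, on 21 of its 1465 probes. The 10 are 9 of the 10 names, plus miR-424*, the strand opposite miR-424 in its hairpin. miR-503 was not analysed here.

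The samples were fractions of whey from the raw milk of Holstein cows. The exosome sample is the pellet of a spin at 10000 g for 90 min at 4 °C, washed 2 times, and the supernatant sample is the whey left above that pellet. Exosomes are small vesicles that cells release, and the labels give the pellet that name. The title of the supernatant sample says that it was taken after ultracentrifugation, while the force given is 10000 g. Which of these holds was not settled here. A spin of the force given brings down larger particles, and how many exosomes stayed in the supernatant is not known from these data. RNA of 3 milk samples was mixed in equal parts, and 40 ng was labelled with the dye Cy3 for a 1-colour miRNA array, 1 array per fraction. No replicate stands behind any value below, so no test was run, and each ± is an SD between spots of the same array. Milk holds several cell types, and the labels name none.

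In mammals the family is known for restraint of the cell cycle. miR-15 and miR-16 lower BCL2 and cyclins, and they are lost in many chronic lymphocytic leukaemias. miR-103 and miR-107 arise from introns of pantothenate kinase genes, the enzymes that start coenzyme A synthesis, and are known to act on lipid and insulin metabolism. miR-424 and miR-503 come from the same X-linked cluster and are known from regression of the mouse mammary gland after nursing.

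The probe sequences are given first because they bear on which members can be told apart. Each probe is DNA complementary to the 3′ part of its miRNA, so its own 3′ end lies toward the seed, the 5′ stretch that finds targets. The longest probe of each member is shown 5′ to 3′. For miR-103 and miR-107 the capitals mark the run of 16 bases that both probes share:

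miR-103: tcATAGCCCTGTACAATG

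miR-107: gATAGCCCTGTACAATGc

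For miR-16a and miR-16b the capitals again mark a shared run of 16 bases, and in miR-195 they mark the 10 bases it shares with miR-16b:

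miR-16a: caCCAATATTTACGTGCT

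miR-16b: gCCAATATTTACGTGCTg

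miR-195: tGCCAATATTTctgtgct

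For the remaining guide strands the capitals mark a closing GCTGC, the complement of the GCAGC inside the family's shared run:

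miR-15a: acaaaccattatgtGCTGC

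miR-15b: tgtaaaccatgatgtGCTGC

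miR-497: tacaaaccacagtgtGCTGC

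miR-424: tcaaaacatgaattGCTGC

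These are the only 4 family probes that end in GCTGC. On the whole array 8 of 1465 probes end so, or 0.546%. GCTGC or its complement GCAGC lies anywhere in 51 probes, 3.48% of all, and in 6 of the 21 family probes. Probes were also compared at every shift and on both strands. The miR-103 and miR-107 probes come within 1 mismatch of each other over 17 bases, and so do those of miR-16a and miR-16b. With an overlap of at least 14 bases, no probe of a miRNA outside the family came within 1 mismatch of a longest family probe. Signal could therefore be shared within these 2 pairs, and their members may not be fully separated. Probes were compared only with each other, so shared signal was not measured.

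The members' genes are scattered over several chromosomes. The array design, in HGSC Btau_3.1 and with no strand used here, places the longest miR-103 probe at chr13:51838830-51838847 and at chr20:2864177-2864194. In the RefSeq table of ARS-UCD2.0, from which no coordinates were taken, the gene on chromosome 13 overlaps PANK2 and the gene on chromosome 20 overlaps PANK3. The same mature sequence thus comes from both, and the array cannot tell their products apart. The miR-107 probe is placed at chr26:11661343-11661359, and its gene overlaps PANK1. The genes of miR-15b and miR-16b are neighbours on chromosome 1 inside SMC4, a condensin subunit gene, and those of miR-15a and miR-16a are neighbours on chromosome 12 in a transcribed pseudogene. The genes of miR-195 and miR-497 are neighbours on chromosome 19 in a long noncoding RNA. The miR-424 gene lies on X, beside those of miR-503, miR-542 and the miR-450 group. The table does not say whether an overlap is exonic or intronic.

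The first comparison asked which members were seen in each fraction. A probe counted as detected when 50% or more of its spots carried the scanner software's flag for well above background, and a miRNA when any of its probes did. miR-103 was the only member detected, and only on the exosome array. That is 1 of 10 members on the exosome array, where 9.85% of all miRNAs were detected, and 0 of 10 on the supernatant array, where 12.7% were. The family's share therefore lay near that of the array on the exosome side. Detection on the exosome array alone held for 5.37% of all miRNAs, and 81.9% were detected on neither array. By the same rule, let-7 and miR-98 had 6 of 10 members detected on the exosome array, miR-29 had 3 of 4 and miR-30 had 4 of 7. On the supernatant array these families had 1, 0 and 2 members detected, in that order. No test of these differences in share was run.

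miR-103 was bright on both of its probes. The 18-base probe read from 86.3 to 119 on the exosome array, with a median of 101 over 30 spots. On the supernatant array the same probe read from -1.94 to 13.9, with a median of 5.86 over 29 spots. The ranges are far apart, and the dimmest exosome spot was several times as bright as the brightest supernatant spot. The 17-base probe read from 23.5 to 42.2 on the exosome array, with a median of 33.3, and from -4.24 to 8.43 on the supernatant array, with a median of 0.71. Here too the ranges did not overlap. All 30 exosome spots of each probe were well above background, a share whose exact (Clopper-Pearson) 95% interval starts at 88.4%, and 0 supernatant spots were. Such intervals cover the counting of spots only.

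Averaged over its probes, miR-103 reached 66.8 ± 6.81 in exosome (60 spots) and 3.25 ± 3.84 in supernatant (59 spots). The supernatant value is within the reach of background. Its 18-base probe had a mean of 5.32 there, and 86 of the 1299 probes not detected in supernatant read higher, or 6.62%. Negative control spots, which carry probes with no miRNA target, read 4.67 ± 3.46 in exosome and 4.41 ± 3.35 in supernatant. Grouped by their 7 names, the controls had means from 2.26 to 7.35 on the supernatant array. The difference of miR-103 can thus only be given as a lower bound, against the lowest signal of any detected miRNA on the supernatant array, 7.04. For scaling, each array's signals were divided by their 75th percentile over those probes that both arrays detected, 473 for exosome and 15030 for supernatant. miR-103 was then at least 301-fold higher in exosome, a log2 bound of 8.24. Without scaling it was at least 9.49-fold higher, a log2 bound of 3.25.

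The scaling makes up the step from 9.49-fold to 301-fold, so the bound was set beside the other scalings. It was 3.50 on the log2 scale with the 75th percentile of all probes, 8.20 with the median of probes detected on both arrays and 7.25 with quantile normalization. Scaled to hybridisation controls, RNAs added before hybridisation, it was 3.33. Scaled to labelling controls, RNAs added before labelling and 3.47-fold and 2.60-fold brighter on the exosome array, it was 1.66, or at least 3.16-fold. Their part in the result was not tested. Under each of the 7 scalings miR-103 was at least 2-fold higher in exosome by this bound. With the scaling used first, the lowest detected miRNA read 0.0174 in exosome and 0.00047 in supernatant. Any miRNA detected on the exosome array alone therefore passed 2-fold there, and likewise with the median scaling. Under those scalings the 2-fold call for miR-103 only repeats its detection call. With bounds included, a 2-fold excess in exosome was held by 7.76% of all miRNAs after scaling, by 5.07% without it, and by 1.79% under each of the 7. With no member detected on the supernatant array, none could have an excess there. Against a stricter floor, the lowest signal of a detected probe on the supernatant array (18.8), the bound was at least 113-fold after scaling and 3.55-fold without. Under that floor and the labelling controls together it was 1.18-fold, short of 2-fold. That floor was chosen after the data were seen.

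**Figure D1:**
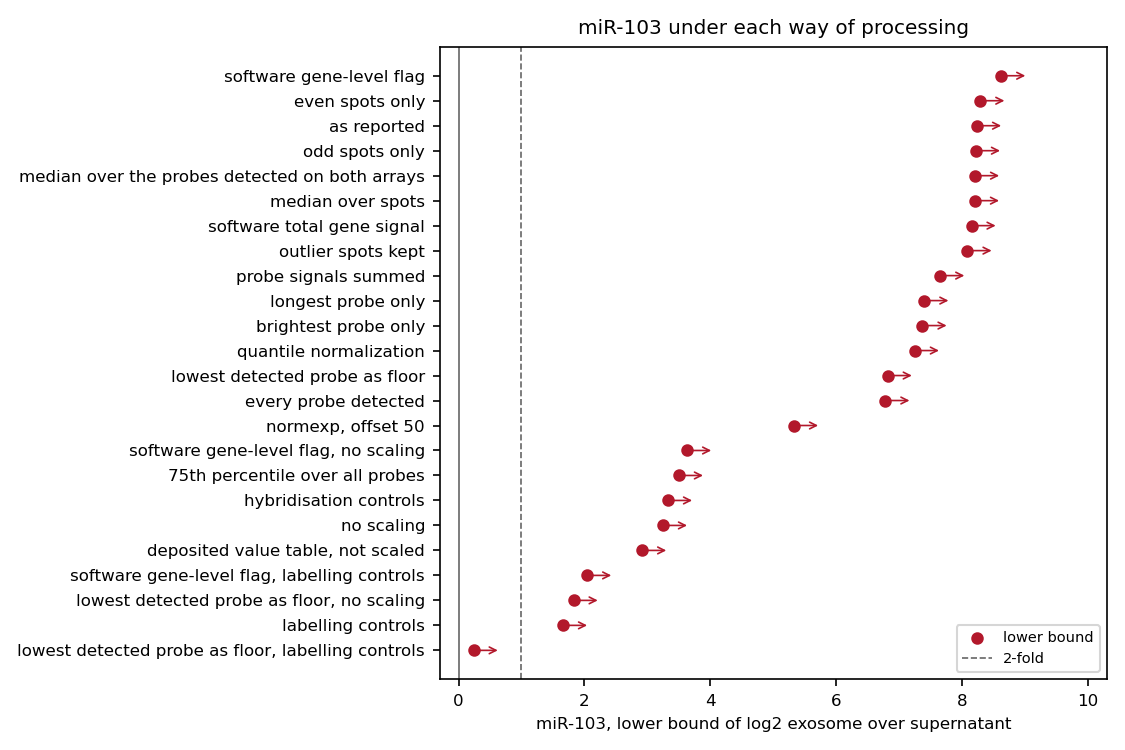
The lower bound of miR-103, log2 exosome over supernatant, under each way of processing that gave a bound; each point with its arrow is a lower bound, and the dashed line marks 2-fold. The bounds run from 0.24 to 8.62, and only the stricter floor with labelling controls falls short of 2-fold.

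miR-103 was among the 9 miRNAs that were detected on the exosome array only and had a bound of at least 2-fold under each of the 7 scalings, 1.34% of the array. The others were let-7a, let-7c, let-7f, miR-148a, miR-200b, miR-20a, miR-26a and miR-29c. Quantile normalization apart, each bound is the exosome signal over a fixed supernatant floor, times a factor set by the scaling. The 7 scalings are thus not 7 separate checks. The labelling controls gave the strictest factor, so the list is close to a cut on exosome brightness. Also seen on the exosome array only, let-7g (39.6) and miR-30b-5p (35.1) were left out. Among the 35 other miRNAs seen on the exosome array only, the 4 whose exosome signal lay nearest that of miR-103 on the log2 scale were miR-20a (68.2 ± 7.13), miR-26a (74.4 ± 6.32), miR-29c (53.5 ± 6.36) and miR-200b (88.5 ± 9.70). On the supernatant array these read 1.15 ± 3.26, 0.97 ± 3.59, 6.13 ± 3.60 and 2.18 ± 3.12. These were chosen for their detection call and their exosome signal, so the likeness is a description over 2 arrays only. Different probes bind with different strength, so their brightness does not rank the amounts of these miRNAs.

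miR-107, the closest relative of miR-103, fell short of detection on the exosome array. Its 18-base probe read from 9.64 to 23.6 there, with a median of 15.0, and from -8.14 to 6.22 on the supernatant array, with a median of -0.31. The lowest exosome spot lay above the highest supernatant spot. Only 6 of the 30 exosome spots were well above background, or 20% (exact 95% interval 7.71% to 38.6%), so the rule of 50% was not met. Of the 1362 probes of the array not detected in exosome, 7 had a higher mean than the 15.4 ± 3.81 of this probe. The 17-base probe of miR-107, which lacks the last c of the sequence above, read 0.16 ± 3.74 in exosome and -1.73 ± 3.44 in supernatant. The 2 probes of miR-107 therefore disagreed, and only the longer read above all its supernatant spots. That probe shares 16 bases in a row with the probe of miR-103, which ends before the last c. Only probes were compared, so the match of this probe to miR-103 RNA itself may be longer. How much of its signal belongs to miR-103 was not tested.

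miR-15a and miR-15b, which pair with BCL2 messenger RNA, were not detected, and their longer probes stood differently to background. The 19-base probe of miR-15a read from 5.81 to 17.5 on the exosome array, with a median of 10.2, and from -4.84 to 4.97 on the supernatant array, with a median of -0.36. These ranges did not overlap either. Its mean of 10.8 ± 3.07 lay above the means of all 7 negative control names on the exosome array, 1.93 to 7.36. Still, 0 of its 30 spots were well above background. Of the undetected exosome probes, 29 of 1362 read higher, or 2.13%. The 18-base probe of miR-15a read 0.24 ± 2.92.

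The 20-base probe of miR-15b read from 3.23 to 10.8 on the exosome array, with a median of 6.84 over 26 spots, and from -7.65 to 4.74 on the supernatant array, with a median of -1.28. These ranges overlapped. Its exosome mean of 6.84 ± 2.10 lay inside the range of the control means, and 89 of the 1362 undetected probes read higher. The 19-base probe of miR-15b read 2.51 ± 3.22. Without scaling, all exosome spots lay above all supernatant spots for 4 of the 21 family probes: both of miR-103, the longer of miR-107 and the longer of miR-15a. That held for 4.10% of all probes. The reverse, all supernatant spots above all exosome spots, held for 0 family probes and for 10.4% of all probes. Fully separated probes thus more often read higher in supernatant, while 57.9% of all probes had a higher mean in exosome.

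**Figure D2:**
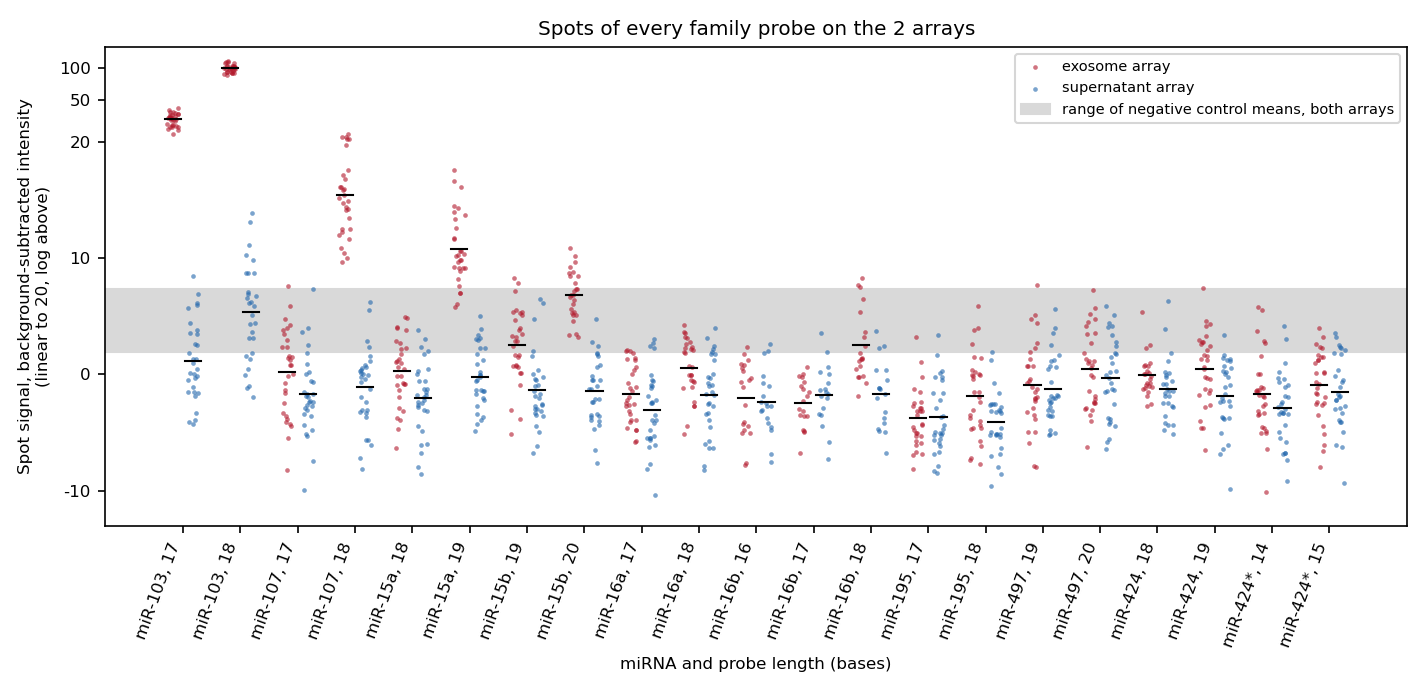
Each point is 1 spot of a family probe on the exosome or the supernatant array, in background-subtracted intensity (linear to 20, logarithmic above), with black bars at the means and the range of the negative control means in grey. Both miR-103 probes and the longer probes of miR-107 and miR-15a sit above all their supernatant spots; the other probes overlap.

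miR-16a and miR-16b, often counted among the common miRNAs of body fluids, were not detectable in either fraction. miR-16a read -0.56 ± 2.50 in exosome and -2.42 ± 3.33 in supernatant. miR-16b, measured by 3 probes, read -0.66 ± 2.78 and -1.96 ± 2.75. Both miRNAs lay below the mean of the negative controls on each array. So did most undetected probes, with 75th percentiles of 1.38 in exosome and 1.16 in supernatant. The longest probe of miR-16b read highest of its 3, at 2.48 ± 3.04 on the exosome array against -1.73 ± 2.87 on the supernatant array, with overlapping spots. The lowest means of detected miRNAs were 8.21 in exosome and 7.04 in supernatant, but these average in probes that were not detected. The lowest detected probes read 18.2 and 18.8. A level of miR-16a or miR-16b that reads below these on every probe cannot be told from its absence. Each gene of this pair is the neighbour of a miR-15 gene, and of these 4 miRNAs none was detected.

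miR-195 and miR-497, neighbours that restrain the cell cycle, were at background. miR-195 read -2.82 ± 3.05 in exosome and -3.90 ± 2.87 in supernatant. miR-497 read -0.23 ± 3.55 and -0.77 ± 3.19. miR-424 read 0.18 ± 2.56 and -1.57 ± 2.84, and miR-424* read -1.32 ± 3.26 and -2.19 ± 3.12. Spots of the 2 arrays overlapped for every probe of these 4. The partners of miR-424 on X were likewise undetected: miR-450 read 1.26 ± 2.62 and 1.12 ± 3.06, and miR-542-5p read -2.85 ± 2.99 and -2.86 ± 3.04.

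On the exosome array the longest probe read higher than the shortest for all 10 members, as for 530 of the 670 miRNAs of the array and 63 of the 66 detected there. On the supernatant array this held for 7 of 10 members for 506 of 670 miRNAs and for 50 of the 85 detected there. For miR-103 the last base, g in the sequence above, went with a rise from 32.7 to 101, or 3.08-fold. Over the 36 miRNAs with at least 2 detected probes on the exosome array, the median ratio was 1.97, with quartiles of 1.22 and 4.16. The gain of miR-103 with probe length thus lay inside the middle range. Those ratios set the longest probe against the shortest whatever their gap in length, and the 36 include miR-103 itself. The longest family probes held 15 to 20 bases, with a GC content of 36.8% to 60.0% and a median of 44.4%. Over all miRNAs the median was 50%, and over those detected on the exosome array it was 52.9%. miR-103, at 44.4%, stood at the family's median.

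**Figure D3:**
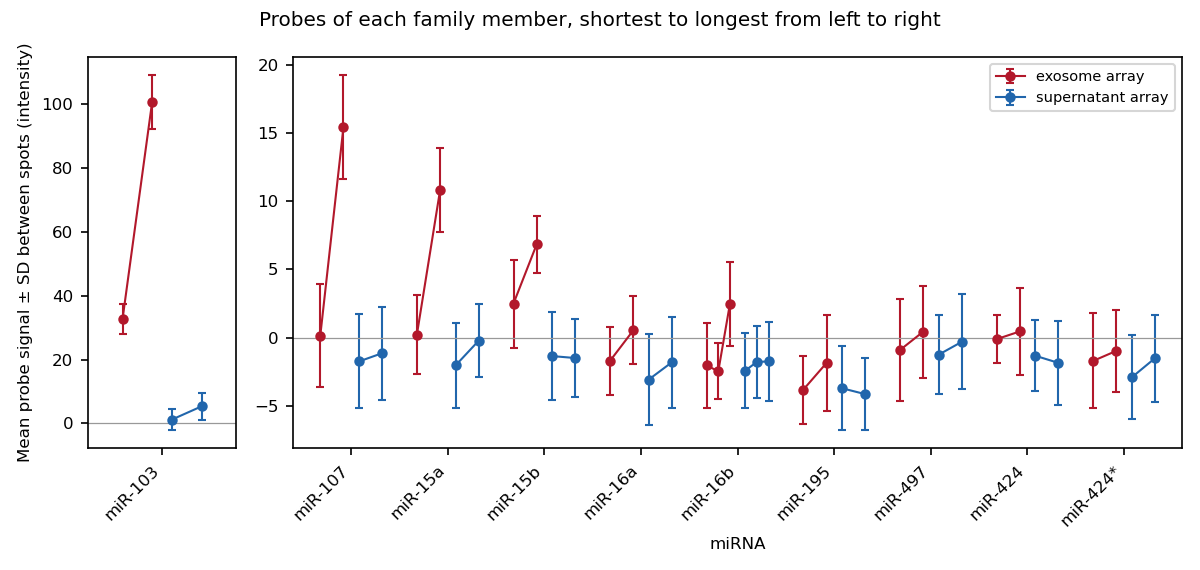
Mean signal of each probe with the SD between spots, from the shortest to the longest probe of a miRNA, on the exosome and the supernatant array; miR-103 has its own axis. In exosome the longer probes of miR-103, miR-107 and miR-15a read 101, 15.4 and 10.8, against 32.7, 0.16 and 0.24 for the shorter ones.

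Looser calls raised the family's count. Where a spot needed only to be positive and significant, 4 of 10 members passed on the exosome array (miR-103, miR-107, miR-15a and miR-15b) and miR-103 passed on the supernatant array, against 26.3% and 27.0% of all miRNAs. The negative control spots met that rule in 63.2% and 57.7% of cases, and met the well-above-background rule in 0. On the supernatant array 62.1% of the spots of the 18-base miR-103 probe were positive and significant (exact 95% interval 42.3% to 79.3%), a share that control probes also reach. The software's own call per miRNA passed miR-103 and miR-107 on the exosome array and no member on the supernatant array, against 11.8% and 13.6% of all miRNAs. Its total gene signals were 56.6 ± 4.99 for miR-103 and 6.55 ± 1.64 for miR-107, with the software's own error. The authors' deposited value table, in log2 units, lists miR-103 at 9.15 and miR-107 at 6.03 for exosome, and every other family value at 0.

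The dim members have no difference between fractions that could be given. Without scaling, 19 of the 21 family probes had a higher mean on the exosome array, against 57.9% of all probes. Most of these means were at background, where the undetected probes had a median of -0.75 in exosome and -1.19 in supernatant. Blood cells carry much miR-15 and miR-16, so their markers were read on the same arrays. Of 3 erythroid markers and 5 leukocyte markers, 0 were detected on the exosome array, and the red cell marker miR-451 read -0.78 ± 3.40 there. On the supernatant array miR-486 (34.1 ± 6.20) and miR-223 (19.3 ± 4.23) were detected. There the erythroid markers miR-144 (-0.06 ± 2.68) and miR-451 (-0.62 ± 2.87) were at background, so the erythroid sum was that of miR-486 alone. The other leukocyte markers were undetected there: miR-142 (-2.54 ± 3.54), miR-142* (-0.23 ± 3.53), miR-150 (-3.02 ± 3.29) and miR-155 (1.75 ± 2.43). Most of the leukocyte sum in supernatant was thus miR-223. Unscaled and with means below 0 counted as 0, the erythroid markers summed to 0.47 in exosome and 34.1 in supernatant, and the leukocyte markers to 7.31 and 21.1. After scaling the leukocyte sums turned to 0.0154 and 0.0014, while the erythroid sums were 0.00099 and 0.0023. The exosome sums of both lists hold no detected marker. Most of the leukocyte sum there was miR-223 at 6.83 ± 3.28, inside the range of the control means, 1.93 to 7.36. The turn of the leukocyte sums thus comes from dividing background by 473 rather than 15030, and is no measured excess in exosome. Of 5 epithelial markers, miR-141, miR-200a, miR-200b and miR-200c were detected on the exosome array, where miR-103 was, and miR-141 and miR-200c on the supernatant array. Those 5 summed to 768 and 231 unscaled, and to 1.62 and 0.0153 after scaling. Their part in the result for miR-103 was not tested.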

How the data were processed

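Per the file headers, Agilent Feature Extraction 10.7.3.1 made the deposited intensities, with the background subtracted and no scaling between arrays. The software's flags mark spots as outliers, well above background, or positive and significant. The authors' deposited value table is in log2 units and equals log2 of the software's total signal over 0.1, with a largest deviation of 6.2e-06. Its arrays are not scaled to each other, and other steps are not given in the sources used here.

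Of 40200 miRNA spots per array, 1005 and 1032 outliers were left out, and no spot was saturated. Spots were averaged per probe, then probes per miRNA, and log2 ratios taken after scaling. A miRNA's ± is taken over its probes as the square root of their mean variance between spots. Normexp used an offset of 50. With 1 array per fraction no p-value was computed, and the array number limits the precision. The members, lists and rules were chosen with earlier results of these data known: every member is reported, with the 4 nearest miRNAs outside the family. Names follow the array design. Steps were tested on simulated data, with the common offset between the arrays removed and every expressed miRNA bright on both. That test therefore did not cover the scaling between arrays or the lower bounds. The software was R 4.3.3 with limma 3.58.1, and Python 3.11.15 with numpy 2.4.6, pandas 2.3.3, scipy 1.17.1 and matplotlib 3.10.9.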

Additional observations from a re-analysis of the deposited data

Results flagged for a closer look

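miR-107 had a total gene signal of 6.55 on the exosome array in a column of the scanner software that the comparisons of the report do not rest on. The software called it detected there, while 20% of the spots of its longer probe, and 0 of its shorter one, were well above background. On the supernatant array the software listed it at 0.1, its value for a miRNA not detected.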

How the results depend on the processing

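miR-103 had a lower bound above 1-fold under every alternative run except positive and significant spots, which gave no bound. On the log2 scale, against 8.24, it was 3.25 with no scaling, 3.50 with the percentile of all probes, 7.25 with quantile normalization, 1.66 with labelling controls and 3.33 with hybridisation controls. It was 5.33 with normexp, 7.37 with the brightest probe, 7.40 with the longest probe, 7.65 with summed probes, 8.08 with outlier spots kept, 6.78 with every probe required and 8.62 with the software's flag. The deposited table gave 2.92 without scaling. With the lowest detected probe as the floor, added after seeing the data, it was 6.82, then 1.83 with no scaling and 0.24 with labelling controls, which left 0 members at least 2-fold higher. With positive and significant spots miR-103 counted as detected on both arrays, which gave 9.35; its supernatant value of 3.25 lay below the mean of the negative controls, 4.41, so this is no measured difference. Then 4 members passed in exosome and 1 in supernatant. With the software's flag 2 passed on the exosome array, and 2 were at least 2-fold higher in exosome: miR-107 then had a bound of 45.9-fold. That bound was 1.45-fold with no scaling and absent with labelling controls, where miR-103 had log2 bounds of 3.63 and 2.04; these 2 combinations were added after seeing the data. Odd or even spots alone, the median over spots and the software's total signal moved the bound by less than 0.147. That is the SD of miR-103 between exosome spots on the log2 scale. It is not an error of the bound, for which none was measured. The causes of these shifts were not tested. No paired analysis was possible because each fraction has 1 array. Signals under 8.21 in exosome and 7.04 in supernatant lie below those of every detected miRNA.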
